A study of Mus musculus with 12 samples.

Results

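The proteasome genes of the mouse were followed in 12 livers of a carbon tetrachloride (CCl4) fibrosis experiment. Members were chosen by symbol, as every gene named Psm, then a letter from a to g, then a number, and 1 symbol that carries the pseudogene ending -ps was left out. That gave 50 genes, built from 236 transcripts, out of 24296 genes with a symbol. The table holds 169430 transcripts in all, of which 82136 carry a symbol.

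The proteasome is the barrel-shaped protease that degrades ubiquitin-tagged proteins in the cytosol and nucleus. Its core particle has outer rings of alpha subunits that gate the barrel and inner rings of beta subunits that carry the cutting sites, and a regulatory particle, made of a base with ATPases and a lid, binds, unfolds and feeds in the substrate. Interferon-gamma induces the immunoproteasome subunits Psmb8, Psmb9 and Psmb10, which take the places of Psmb5, Psmb6 and Psmb7 and alter the peptides made for class I presentation.

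All livers came from male C57/BL6N mice whose age was not given. The model, silibinin and phloridzin groups received CCl4 in olive oil by intraperitoneal injection at 5 mL/kg, 2 injections per week, for 8 weeks. Silibinin, a milk thistle flavonolignan, or phloridzin, a plant dihydrochalcone glucoside given here at the highest dose of the study, was added from week 5. The control group carries the label WT, and which vehicle it received was not stated. Each group had 3 livers, named here by group and replicate number. The labels do not tie a sample to a mouse, so p-values measure the spread between these samples.

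RNA was measured as FPKM (fragments scaled to transcript length and library size), summed over the transcripts of a gene, a scale on which levels of different genes can be compared per length. Depth, recovered from the smallest steps between low values, was 105, 108 and 109.6 M fragments in the control livers and 83.7, 101 and 100.1 M in the model livers. It was 107, 111 and 110.1 M in the silibinin livers and 102, 105 and 98.5 M in the phloridzin livers, and 98.86% to 99.09% of the low values checked came out as whole multiples within 0.1. Model 1 was therefore the shallowest library. The tissue label held, since Alb, the hepatocyte gene for serum albumin, stood at 10970.5, 15620.1 and 11509 FPKM in the control livers, 13183, 20585 and 23528 in the model livers, 23806, 29357 and 13602 in the silibinin livers and 18895, 22883 and 16669.5 in the phloridzin livers.

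Phloridzin 1 stood apart from the other livers of its group. It was the highest of the 3 phloridzin livers in 41 of the 47 members tested (87.23%), against 7323 of 13158 genes (55.65%), and the highest of all 12 livers in 19 members (40.43%), against 19.54% of all genes. Its markers of dividing cells (Mki67, Top2a and Ccnb1) summed to 69.2 FPKM, against 9.31 and 6.57 in phloridzin 2 and 3. Srxn1, an oxidative stress gene driven by NFE2L2, read 159, 14.0 and 14.2 FPKM in phloridzin 1, 2 and 3. Nqo1, another, read 39.3, 7.11 and 5.83 FPKM, so phloridzin 1 was far above the other two in both, though Srxn1 was also high in the model livers, at 27.1, 134 and 137 FPKM. These genes were picked after their values were seen. Of the 11 listed genes around NFE2L1 and NFE2L2, phloridzin 1 was the highest phloridzin liver in 8, as it was in 10 of 10 interferon and class I genes, 9 of 14 ubiquitin genes and 7 of 11 proteasome-associated genes. Gclm, a glutathione synthesis gene, went the other way at 16.3, 50.2 and 53.2 FPKM. These rankings were looked at after the values had been seen, and the main results on the phloridzin group are given with and without this liver.

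Differences are log2 fold changes of FPKM + 1 from limma, fitted to all 12 livers at once, and a gene was called at a Benjamini-Hochberg adjusted p under 0.05 over 13158 genes with a mean of at least 0.5 FPKM. The pseudocount makes the fold change of a low gene smaller than its ratio. The whole table shifted between groups. The median log2 fold change of all genes was 0.338 in model against control, -0.153 in silibinin against model and -0.11 in phloridzin against model. The members' medians were 0.177, -0.34 and -0.134, which is -0.161, -0.188 and -0.024 relative to all genes. Without phloridzin 1 the members' median in phloridzin against model was -0.275, beside -0.18 over all genes. Levels per liver, and the order of the livers read from them, are on the deposited scale unless another is named. Of the transcripts' summed FPKM, assembled transcripts without a symbol took 25.48%, 29.78% and 29.79% in the control livers and 19.41% to 21.31% in the other livers, and their part in the shift was not tested.

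Levels differed widely among the members, also within a role. Summed over the 7 constitutive beta subunits, FPKM was 595, 583 and 489 in the control livers, and over the 7 alpha subunits it was 318, 337 and 266. The 8 lid genes summed to 209, 229 and 208 and the 6 base ATPases to 217, 209 and 195 in the same livers. The 3 immunoproteasome genes summed to 20.7, 22.2 and 20.3, and the 7 assembly chaperones to 50.4, 51.8 and 38.7. Psmb1, a structural beta subunit, had the highest mean of all members at 118.5 FPKM over the 12 livers, and Psmb11, the thymus-specific beta subunit, was listed at 0 in 11 livers and at 0.0167 in phloridzin 2. Psma8, the testis alpha subunit, ran between 0.205 and 0.651 FPKM, and Psmc3ip, a meiotic recombination factor that is not a proteasome subunit, between 0.0944 and 0.42. These 3 genes lay under the filter, which left 47 members for the tests.

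**Figure D1:**
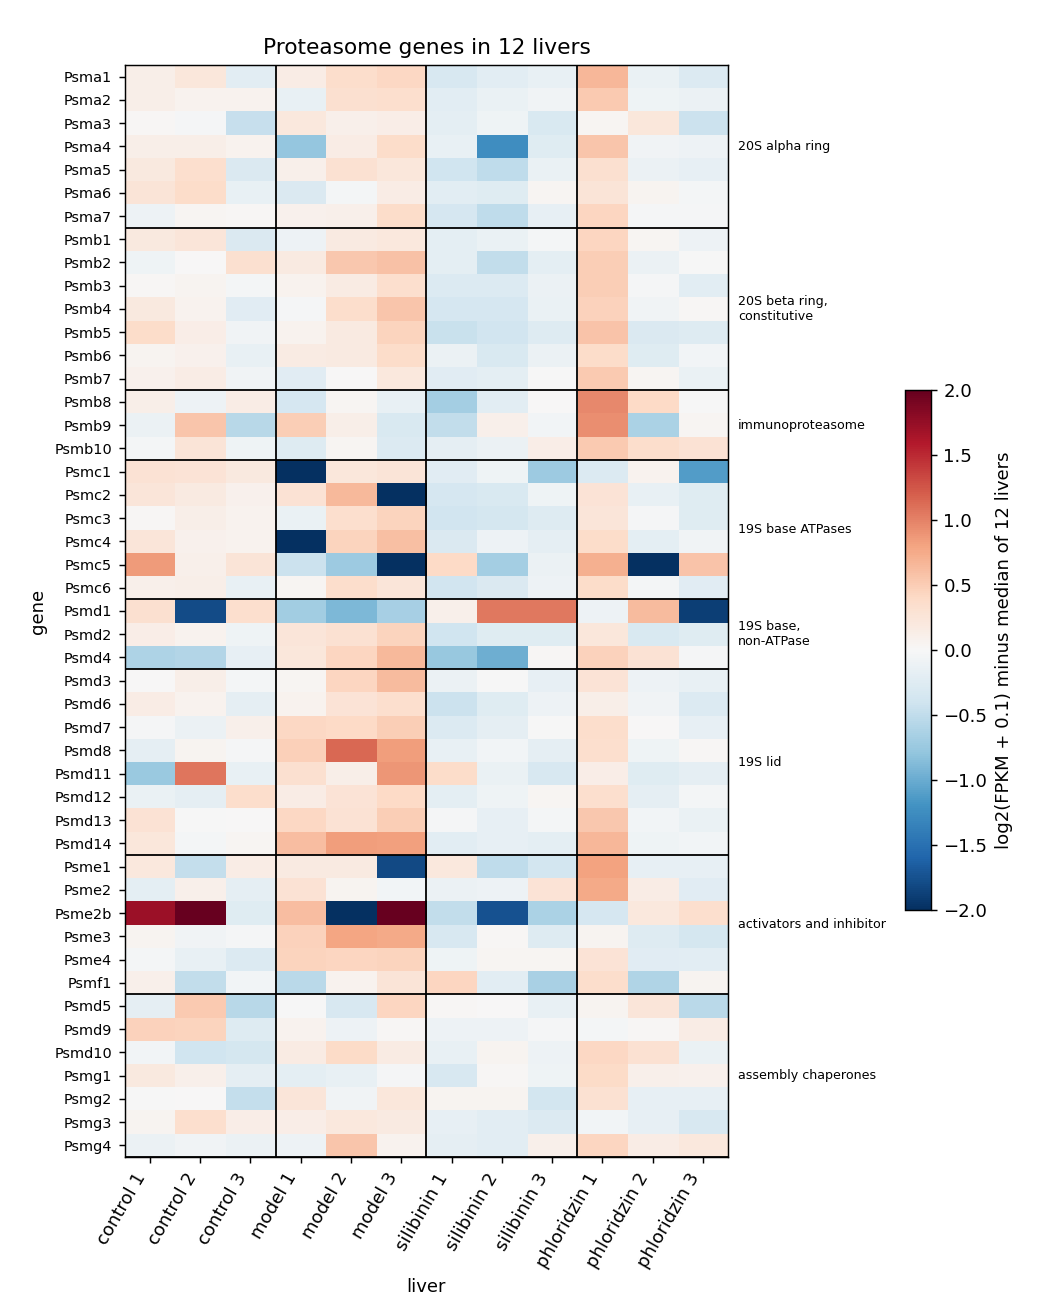
Members by role (vertical axis) across the 12 livers (horizontal axis), coloured by log2(FPKM + 0.1) minus the gene's median over the 12 livers. Phloridzin 1 is the highest of its group in 41 of 47 members, and the model livers stand high for Psmd8, Psmd14, Psme3 and Psme4 on the deposited scale.

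Summed over the 31 constitutive subunits of the core, base and lid, FPKM was 1436, 1438 and 1253 in the control livers and 1311, 1602 and 1694 in the model livers. It was 1108, 1108 and 1222 in the silibinin livers and 1734, 1268 and 1184 in the phloridzin livers. On this scale the model and control livers overlapped, every silibinin liver lay below every model liver, and phloridzin 1 lay above all other livers while phloridzin 2 and 3 lay below the model livers. The order turned when the levels were divided by the median-ratio factors. The control livers then stood at 1632, 1625 and 1528 and the model livers at 1102, 1392 and 1429.5, so every control liver was above every model liver. The silibinin livers stood at 1076, 1031 and 1304, within the range of the model in silibinin 3, and the phloridzin livers at 1526, 1271 and 1205, all below the control livers.

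The comparison of model with control asks what CCl4 did to the liver without a drug. On the deposited scale, 7 of the 47 members rose and none fell: the lid genes Psmd8, Psmd14 and Psmd7, the ubiquitin receptor Psmd4, the activators Psme3 and Psme4, and the chaperone Psmd10. The share called among all genes was 34.9% (31.1% higher), so 7 of 47 is below the background and not a result about the members. With the livers scaled by median ratios, 0 members were called higher by limma (13.3% of all genes) and 6 others were called lower (11.8% of all genes), so the direction rests on the scaling. On that scale 10 members had an unadjusted p under 0.05 (37.5% of all genes), while voom on fragment numbers rebuilt from the FPKM called 6 members, all higher (33.8% of all genes called). Limma called 0 members with a log2 fold change past 1 as well, where 10.5% of all genes passed, and 7 members had an unadjusted p under 0.05 at any size (45.8% of all genes). Psmc5 was called lower with only the 2 groups fitted (-1.34, limma adjusted p = 0.0491) or without phloridzin 2 (0.0261), Psmd9 was called lower without control 3 (0.0238), and a fold past 1 was reached by Psmd4 without control 3 and by Psmd8 without model 1.

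Psmd8, a lid subunit encoded at chr7:29174188-29180701 (mm10), stood at 28.0, 33.0 and 31.2 FPKM in the control livers and 44.2, 70.5 and 56.8 in the model livers. Its values were 28.6, 30.6 and 28.0 in the silibinin livers and 40.2, 30.002 and 32.3 in the phloridzin livers. All 3 model livers were above all 9 others. Psmd14, the deubiquitinase of the lid that cuts ubiquitin chains off the substrate (chr2:61711694-61800376), read 22.3, 18.5 and 19.6 FPKM in the control, 29.3, 34.0 and 33.8 in the model, 16.4, 17.0 and 16.7 in the silibinin and 30.4, 17.9 and 18.3 in the phloridzin livers. The model livers lay above the control and silibinin livers, and phloridzin 1 lay within the range of the model. In limma, Psmd8 rose by 0.85 ± 0.171 (SE; adjusted p = 0.00393) and Psmd14 by 0.66 ± 0.182 (adjusted p = 0.0183), each in 3 of 3 model livers.

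Psmd4, which binds ubiquitin chains at the base (chr3:95032694-95042614), stood at 19.6, 20.1 and 26.9 FPKM in the control and 35.3, 40.4 and 47.5 in the model livers. It read 17.8, 15.2 and 30.7 in the silibinin and 41.6, 36.8 and 29.6 in the phloridzin livers. Control and model did not overlap, while phloridzin 1 and 2 reached into the range of the model. Psmd7, the lid partner of Psmd14, read 21.9, 20.4 and 23.7 FPKM in the control, 29.5, 29.2 and 31.2 in the model, 18.4, 19.5 and 22.0 in the silibinin and 28.3, 22.4 and 19.8 in the phloridzin livers. Every model liver was above every other liver. Psmd10 (gankyrin), a chaperone of base assembly, was low at 4.17, 3.26 and 3.37 FPKM in the control, 4.85, 5.68 and 4.85 in the model, 3.88, 4.49 and 4.02 in the silibinin and 5.78, 5.35 and 3.95 in the phloridzin livers. Its model livers were above the control livers and overlapped the phloridzin livers. By limma the changes against control were 0.86 ± 0.245 for Psmd4 (adjusted p = 0.0205), 0.43 ± 0.138 for Psmd7 (adjusted p = 0.0334) and 0.42 ± 0.145 for Psmd10 (adjusted p = 0.0471), each in 3 of 3 model livers.

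Psme3 and Psme4 encode activators that cap the core particle in place of the regulatory particle, Psme3 mainly in the nucleus. Psme3 (chr11:101316213-101323537) stood at 19.6, 17.9 and 18.6 FPKM in the control and 25.8, 32.4 and 31.8 in the model livers. It read 15.1, 18.99 and 15.6 in the silibinin and 19.5, 15.6 and 14.7 in the phloridzin livers, so the 3 model livers were above all 9 others. Psme4 (chr11:30771726-30880361) was at 39.8, 37.0 and 33.8 FPKM in the control, 55.4, 54.8 and 55.3 in the model, 38.5, 41.8 and 41.7 in the silibinin and 49.4, 35.0 and 35.1 in the phloridzin livers. Its model livers lay within a narrow range above all others. In limma, Psme3 rose by 0.65 ± 0.144 (adjusted p = 0.00648) and Psme4 by 0.57 ± 0.141 (adjusted p = 0.0107), each in 3 of 3 model livers.

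The promoters of both activators are shown, as genes called in more than 1 comparison. Psmd4, Psmd7, Psmd8 and Psmd14 were also called in more than 1, and their promoters are not shown. The second Psme4 call, in phloridzin against model, held in 1 of 12 fits that left out a liver. The sequences are RefSeq promoters of 300 bases on GRCm38.p6, read on the gene's strand, at chr11:101315963-101316262 (plus strand) for Psme3 and chr11:30771525-30771824 (plus strand) for Psme4. Capitals mark matches to TGACNNNGC (the antioxidant response element core), TTCNNNGAA (a gamma-activated sequence) or GAAANNGAA (the interferon-stimulated response element core), each searched on both strands. Psme3 held no match to these letters, and Psme4 held GCAGCGTCA, TGACNNNGC on the minus strand. That match begins 7 bases before the start the window is counted from and runs across it. Each window runs past its start, and for Psme4 that start lies inside the span of the gene given above.
Psme3: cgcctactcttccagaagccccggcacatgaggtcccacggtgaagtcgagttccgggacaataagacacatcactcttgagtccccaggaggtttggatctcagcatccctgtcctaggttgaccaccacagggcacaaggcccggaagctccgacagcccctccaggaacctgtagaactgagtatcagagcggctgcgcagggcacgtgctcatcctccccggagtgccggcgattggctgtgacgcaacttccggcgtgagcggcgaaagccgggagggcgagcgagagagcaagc
Psme4: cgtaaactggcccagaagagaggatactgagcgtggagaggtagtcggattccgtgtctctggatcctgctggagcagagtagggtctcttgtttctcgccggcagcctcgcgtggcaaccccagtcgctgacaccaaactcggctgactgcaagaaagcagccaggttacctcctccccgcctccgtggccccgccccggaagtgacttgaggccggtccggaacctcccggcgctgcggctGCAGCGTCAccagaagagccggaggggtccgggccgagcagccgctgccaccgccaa
TGACNNNGC occurred in 12.39% of 32851 promoters, TTCNNNGAA in 8.3% and GAAANNGAA in 8.56%. Among 42 members with a promoter in the table, 6 held the first (Psmb5, Psmb6, Psmc6, Psmd12, Psmd9 and Psme4), 3 the second (Psmb8, Psmd2 and Psmg1) and 7 the third (Psmb3, Psmb4, Psmc2, Psmd4, Psmd9, Psme1 and Psmg4). A match is a description of letters and not a bound site.

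Under median ratios none of these 7 genes was called in model against control, and with levels divided by the median-ratio factors Psme4 alone of the 7 still had every model liver above every control liver. By limma on that scale the log2 fold change was 0.41 for Psmd8 (adjusted p = 0.0896), 0.43 for Psmd4 (0.278), 0.23 for Psmd14 (0.314) and 0.22 for Psme3 (0.227). For Psme4 it was 0.13 (0.428), for Psmd10 0.053 (0.8), and for Psmd7 the change was 0 to 2 decimals (0.998). The 6 genes then called lower included Psma6, an alpha subunit, at -0.66 (adjusted p = 0.0165), Psmb10 at -0.59 (0.0136) and Psmb7 at -0.50 (0.0437). The chaperones Psmd9, Psmg1 and Psmg3 made up the rest, at -0.61 (0.0214), -0.55 (0.00756) and -0.39 (0.0184). Over all genes the split of calls went from 4094 higher and 500 lower to 1748 higher and 1547 lower.

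When each liver was left out in turn, Psmd8, Psme3 and Psme4 were called in model against control in 12 of 12 fits, with log2 fold changes of 0.69 to 1.02, 0.59 to 0.75 and 0.51 to 0.63. The Psmd14 call was lost without control 2 (0.061), model 2 (0.0556) or model 3 (0.0534), adjusted p in brackets. Psmd4 was lost without control 1 (0.0655), control 2 (0.0643), model 2 (0.0503) or model 3 (0.0692), and Psmd7 without control 1 (0.0766), control 2 (0.103), model 1 (0.0667), model 2 (0.0664) or model 3 (0.0889). The Psmd10 call was the least stable, lost without control 2 (0.133), control 3 (0.118), model 1 (0.0733), model 2 (0.138), model 3 (0.0775), silibinin 1 (0.0633), silibinin 2 (0.0585), silibinin 3 (0.0579) or phloridzin 2 (0.0584). The number of members called was 4 without control 2 and 3 without model 2 or without model 3, and over these 12 fits 26.7% to 39.7% of all genes were called.

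**Figure D2:**
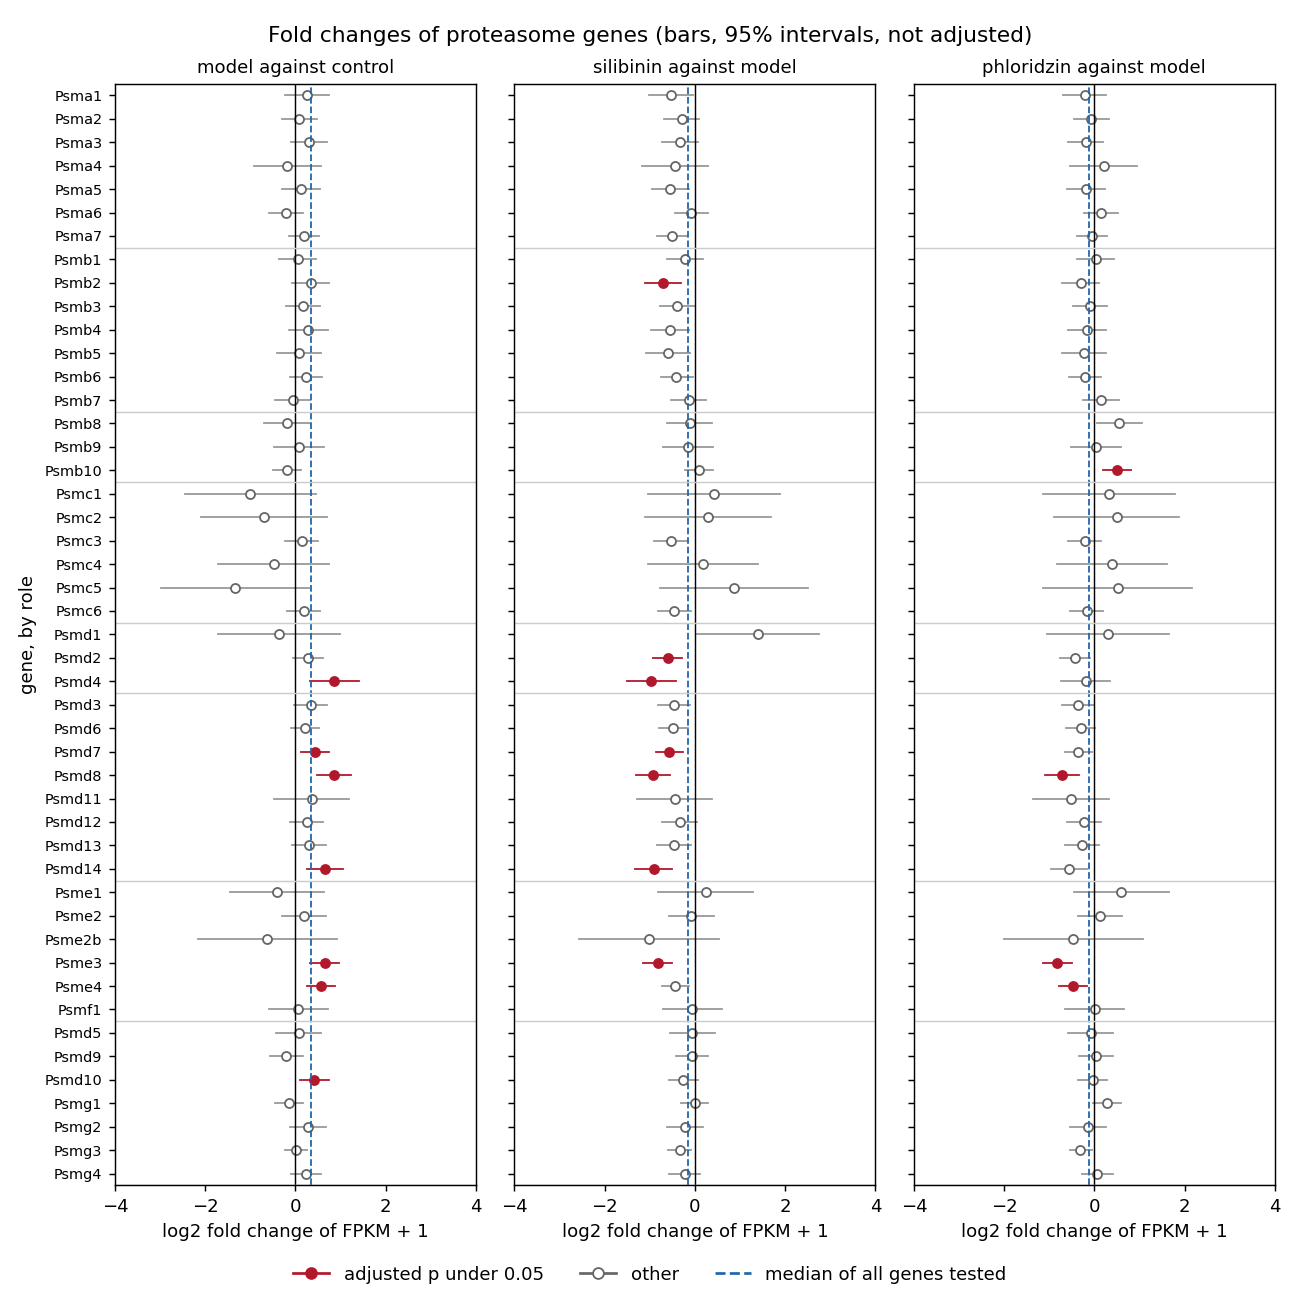
Log2 fold change of FPKM + 1 (horizontal axis) of each tested member (vertical axis, by role) in model against control, silibinin against model and phloridzin against model, with unadjusted 95% intervals as bars, filled points for calls by limma and a dashed line at the median of all genes. Of 47 members, 7, 7 and 4 were called on the deposited scale, and under median ratios 6 (all lower), 3 and 3 were called.

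Markers of other cell types moved as well, on the deposited scale. In model against control limma called 15 of the 35 tested, beside 34.9% of all genes (31.1% called higher). In bulk tissue, fewer cells of a type and less RNA per cell cannot be told apart. Macrophage markers rose in 4 of 6 genes in model against control (Adgre1, Csf1r, Gpnmb and Lyz2), and their sum was 67.3, 124 and 115 FPKM in the control, 259, 389.8 and 380.0 in the model, 341, 418 and 258 in the silibinin and 478, 429.6 and 221 in the phloridzin livers. Lyz2 was the most abundant, and Gpnmb was at 0 in control 2. Stellate cell markers rose in 4 of 6 (Col1a1, Col3a1, Des and Lrat), with sums of 15.7, 11.1 and 12.2 FPKM in the control, 137, 111 and 145 in the model, 141, 132 and 55.2 in the silibinin and 199, 68.7 and 53.8 in the phloridzin livers. Col3a1 was the highest by mean over the 12 livers. Dividing cell markers rose in 2 of 3 (Ccnb1 and Top2a), summing to 0.182, 0.758 and 1.23 FPKM in the control, 10.7, 10.1 and 13.0 in the model, 20.3, 15.1 and 10.3 in the silibinin and 69.2, 9.31 and 6.57 in the phloridzin livers, with Ccnb1 at 0 in control 1 and Top2a the highest by mean over the 12 livers, though Ccnb1 was above it in silibinin 1, silibinin 2 and phloridzin 3.

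Among the lymphocyte markers Ptprc, the most abundant, rose, and the 8 listed markers summed to 5.96, 8.83 and 8.09 FPKM in the control, 19.3, 25.4 and 25.4 in the model, 14.4, 20.4 and 19.3 in the silibinin and 29.0, 22.1 and 17.4 in the phloridzin livers. Of the hepatocyte markers 1 of 6 fell (Cyp2e1) and 0 rose by limma or by voom (1 of 6 at an unadjusted p under 0.05), while their sum was 17255, 22319 and 16991 FPKM in the control, 15824, 23947 and 27228 in the model, 28070.1, 33282 and 17965 in the silibinin and 21528, 28609.5 and 21358 in the phloridzin livers, led by Alb. Itgax among dendritic cell and Krt19 among cholangiocyte markers rose (1 called of 1 tested and 1 of 2), and limma and voom called 0 of 2 neutrophil and 0 of 4 endothelial markers, with 1 of each list at an unadjusted p under 0.05 in limma. The dendritic cell sum was 0.32, 0.472 and 0.271 FPKM in the control, 3.07, 3.51 and 3.63 in the model, 2.78, 2.65 and 2.05 in the silibinin and 3.23, 1.99 and 1.69 in the phloridzin livers, led by Itgax. The cholangiocyte sum was 1.76, 2.98 and 2.18 FPKM in the control, 3.93, 5.69 and 4.64 in the model, 4.55, 3.76 and 7.03 in the silibinin and 6.00, 4.75 and 7.38 in the phloridzin livers, with Sox9 the highest by mean over the 12 livers and Krt19 above it in silibinin 1 and phloridzin 1. The neutrophil marker S100a9 was at 0 in 7 livers. In silibinin against model limma and voom called 0 of the 35 markers tested, with 3 at an unadjusted p under 0.05. Of all genes, limma called 14.1% there and 29.2% had such a p, both above the shares of the markers. In phloridzin against model limma and voom called 1 of the 35, beside 12.9% of all genes by limma. It was the stellate cell gene Lrat, which read 12.7, 11.9 and 14.9 FPKM in the model and 8.37, 5.75 and 7.03 in the phloridzin livers. It fell by 0.83 (limma adjusted p = 0.0149, 3 of 3 livers), a call lost without model 3 (0.0512) or phloridzin 2 (0.0629) and with only the 2 groups fitted (0.0513). The part of these cell types in the members' changes was not tested.

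The comparison of silibinin with model asks what that drug did to the CCl4 liver. On the deposited scale 7 of 47 members fell and none rose: the lid genes Psmd8, Psmd14 and Psmd7, the base genes Psmd4 and Psmd2, the activator Psme3 and the core subunit Psmb2. The log2 fold change was negative in 40 members and positive in 7, beside 8655 negative and 4500 positive among all genes, and under median ratios it was negative in 31 members and positive in 16. Of the base ATPases 4 were positive and 2 negative, with 0 called by limma or voom (2 at an unadjusted p under 0.05), but 3 of the positive values rested on 1 low model liver each. Without model 1 Psmc1 was at -0.57 (limma adjusted p = 0.268) and Psmc4 at -0.69 (0.0311), and without model 3 Psmc2 was at -0.70 (0.0367). The base scaffold Psmd1 had a positive value of 1.41 (limma adjusted p = 0.156), which was called with only the 2 groups fitted (0.0256). The background was 14.1% called (11.4% lower), near the share among the members (7 of 47), so the count is not a result about the members. With a fold past 1 limma called 0, against 4.0% of all genes, though Psmd8 reached it without model 1 and Psmd4 without model 1 or silibinin 3, while 22 members had an unadjusted p under 0.05 at any size (29.2% of all genes) and voom called 8 (13.4%). With median ratios 3 stayed called, Psmd14, Psmd8 and Psme3 (6.48% of all genes lower). Without phloridzin 1, which belongs to neither group but enters the shared estimate of spread, 18 members were called lower, against 13.7% of all genes.

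Among the lid genes, limma gave falls of -0.93 ± 0.171 for Psmd8 (adjusted p = 0.00619), -0.91 ± 0.182 for Psmd14 (0.00884) and -0.57 ± 0.138 for Psmd7 (0.0212), each in 3 of 3 silibinin livers, on the log2 scale. At the base, Psmd4 changed by -0.97 ± 0.245 (limma adjusted p = 0.0252) and Psmd2 by -0.61 ± 0.15 (0.0224), both lower in 3 of 3 silibinin livers. Psmd2, a large scaffold subunit that docks substrate shuttles, read 57.8, 55.4 and 49.8 FPKM in the control, 62.0, 64.7 and 71.9 in the model, 40.0, 44.6 and 44.7 in the silibinin and 61.7, 42.5 and 44.2 in the phloridzin livers. Its silibinin livers lay below every control and model liver. Psme3 changed by -0.82 ± 0.144 (limma adjusted p = 0.00495), lower in 3 of 3 silibinin livers.

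In the core particle only Psmb2, a structural beta subunit, passed the test. It stood at 22.3, 23.6 and 29.5 FPKM in the control, 26.8, 34.2 and 35.3 in the model, 20.5, 16.7 and 20.6 in the silibinin and 33.2, 21.8 and 23.6 in the phloridzin livers. Silibinin and model did not overlap, and phloridzin 1 lay in the range of the model. The change was -0.70 ± 0.185 by limma (adjusted p = 0.0294), lower in 3 of 3 silibinin livers. Without phloridzin 1, Psmb5 was among the genes also called, at -0.59 (limma adjusted p = 0.0204), lower in 3 of 3 silibinin livers.

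Across the fits that leave out a liver, Psmd8, Psmd14 and Psme3 were called in silibinin against model in 12 of 12. Psmd4 was lost without model 2 (0.0683), model 3 (0.0782), silibinin 1 (0.0874) or silibinin 2 (0.083) and Psmd7 without model 1 (0.0516), model 2 (0.0562), model 3 (0.0626), silibinin 1 (0.0809) or silibinin 2 (0.062), adjusted p in brackets. Psmd2 was lost without model 2 (0.0598), model 3 (0.0713), silibinin 1 (0.0832), silibinin 2 (0.0519) or silibinin 3 (0.0547), and Psmb2 without model 2 (0.0949), model 3 (0.0871), silibinin 1 (0.0626), silibinin 2 (0.094) or silibinin 3 (0.061). Model 2, model 3, silibinin 1 and silibinin 2 left 3, 4, 3 and 3 members called when left out, and phloridzin 1 left 18, while 8.47% to 17.1% of all genes were called over the 12 fits.

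The comparison of phloridzin with model asks the same of the other drug. Psme3, Psme4 and Psmd8 fell, and the immunoproteasome subunit Psmb10 rose. That is 4 of 47 members, below the 12.9% called among all genes. With a fold past 1 limma called 0, against 3.52% of all genes, while 9 members had an unadjusted p under 0.05 at any size (27.8% of all genes) and voom called 3 (11.5%). With median ratios the count was 3, Psmb10 and Psmg1 higher and Psme3 lower (11.0% of all genes). Without phloridzin 1, 7 members were called lower (Psmd13, Psmd14, Psmd2, Psmd7, Psmd8, Psme3 and Psme4), against 13.0% of all genes, and Psmb10 was not called (0.44, limma adjusted p = 0.0764, higher in 2 of 2 livers).

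Psme3 changed by -0.82 ± 0.144 (limma adjusted p = 0.00503), lower in 3 of 3 phloridzin livers, and by -0.93 without phloridzin 1 (adjusted p = 0.00289). For Psmd8 the limma change was -0.71 ± 0.171 (adjusted p = 0.0221), lower in 3 of 3, and -0.83 without that liver (adjusted p = 0.0133). Psme4 changed by -0.48 ± 0.141 (limma adjusted p = 0.0488), lower in 3 of 3, and by -0.64 without it (adjusted p = 0.0045). Under median ratios the limma values were -0.54 for Psmd8 (adjusted p = 0.0633) and -0.30 for Psme4 (adjusted p = 0.121), neither called, each still lower.

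Psmb10, the trypsin-like site of the immunoproteasome, stood at 9.56, 11.8 and 9.27 FPKM in the control and 8.22, 10.1 and 8.15 in the model livers. It read 8.71, 9.02 and 10.8 in the silibinin and 14.3, 12.6 and 11.99 in the phloridzin livers. All 3 phloridzin livers were above all other livers, which no longer held for control 2 after division by the median-ratio factors. The rise over the model was 0.51 ± 0.139 by limma (adjusted p = 0.0373), in 3 of 3 phloridzin livers, and 0.67 (adjusted p = 0.0155) under median ratios.

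Leaving out a liver at a time, only Psme3 was called in phloridzin against model in 12 of 12 fits. Psmb10 was lost without control 1 (0.0518), model 1 (0.108), model 3 (0.107), silibinin 1 (0.0521), silibinin 2 (0.0536), phloridzin 1 (0.0764), phloridzin 2 (0.0909) or phloridzin 3 (0.0636), adjusted p in brackets. Psmd8 was lost without model 2 (0.0756), model 3 (0.057), phloridzin 2 (0.0866) or phloridzin 3 (0.0694). The Psme4 call held only without phloridzin 1 and was lost without control 1 (0.063), control 2 (0.0679), control 3 (0.0549), model 1 (0.112), model 2 (0.11), model 3 (0.106), silibinin 1 (0.0695), silibinin 2 (0.0694), silibinin 3 (0.0645), phloridzin 2 (0.168) or phloridzin 3 (0.146). The members called were 1 without model 3, phloridzin 2 or phloridzin 3, 2 without control 1, model 1, model 2, silibinin 1 or silibinin 2, and 7 without phloridzin 1, while 6.57% to 15.8% of all genes were called over the 12 fits. The 3 comparisons with the model share the model livers, so their values stand side by side and are not independent.

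**Figure D3:**
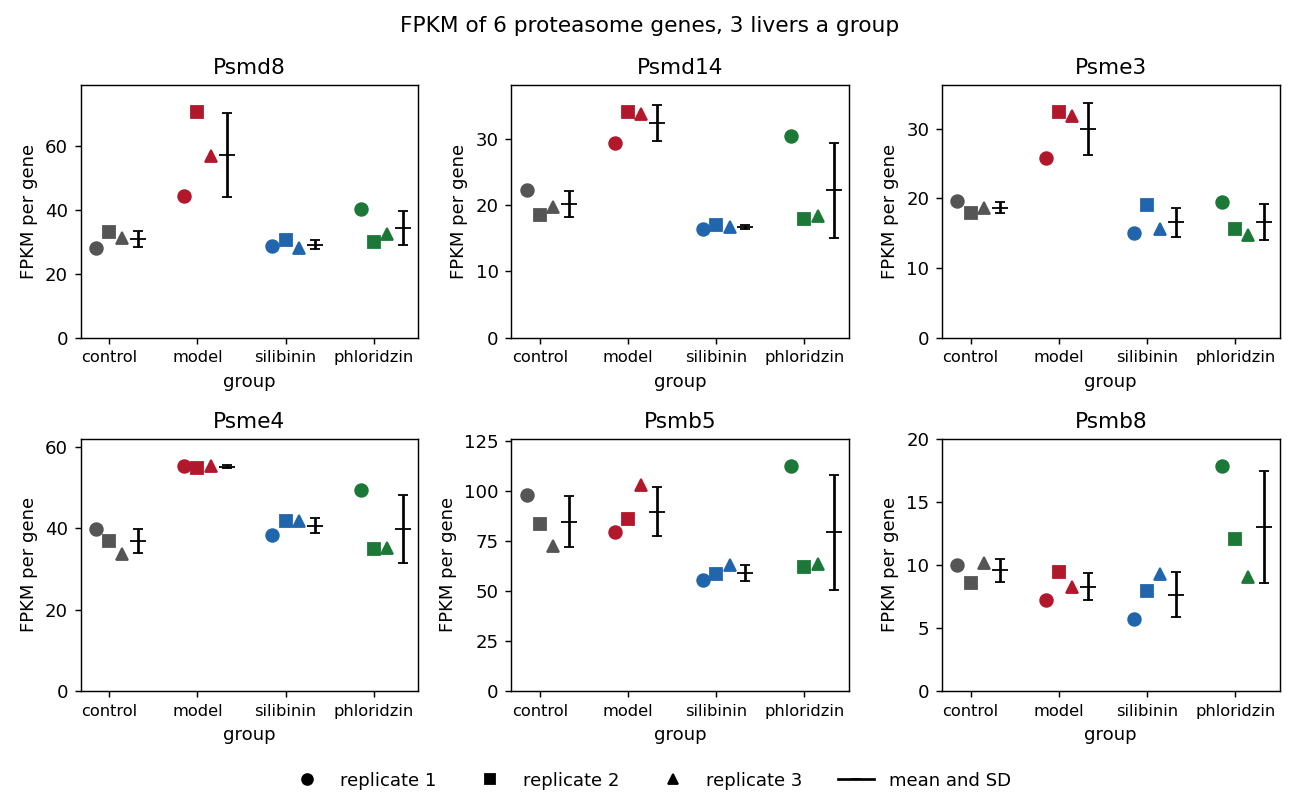
FPKM (vertical axis, from 0) of Psmd8, Psmd14, Psme3, Psme4, Psmb5 and Psmb8 by group (horizontal axis), with each liver as a point and the mean and SD beside it. On the deposited scale the model livers are highest for Psmd8, Psme3 and Psme4, where median ratios end the calls against control, and phloridzin 1 stands above the other phloridzin livers in all 6.

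The drugs were also set against each other and against the controls. In phloridzin against silibinin, limma called 0 of 47 members, with 4 at an unadjusted p under 0.05 (Psma7, Psmb10, Psmb8 and Psmd4) and 0 by voom, where 0.0228% of all genes were called. In silibinin against control limma called 0, with 5 at an unadjusted p under 0.05 (Psma5, Psmb5, Psmc3, Psme2b and Psmg3) and 0 by voom, against 5.02% of all genes. In phloridzin against control limma called 0, with 4 at an unadjusted p under 0.05 (Psmb10, Psmd10, Psmd4 and Psmg3) and 0 by voom, against 7.99% of all genes. Under median ratios 27 members had an unadjusted p under 0.05 in silibinin against control (20.8% of all genes), 5 in phloridzin against control (22.5%) and 4 in phloridzin against silibinin (4.03%). On that scale Psmd2 and Psmg3 were called lower in silibinin against control, at -0.56 (limma adjusted p = 0.0354) and -0.54 (0.0157), and Psmg3 in phloridzin against control, at -0.54 (0.0146), beside 1.16% and 1.64% of all genes called lower. A p that misses the threshold does not show that the levels were alike. The members' medians were 0.216, -0.199 and 0.031 in these 3 comparisons, beside 0.029, 0.158 and 0.183 over all genes. Under median ratios they were 0.182, -0.429 and -0.218, beside 0.004, -0.013 and -0.013 over all genes. Without phloridzin 1, on the deposited scale, the median was 0.085 in phloridzin against silibinin (-0.03 over all genes) and turned to -0.139 in phloridzin against control (0.135 over all genes).

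Each immunoproteasome subunit can be set against the subunit it replaces within a liver, which removes the scaling. Psmb8, the chymotrypsin-like immunosubunit, stood at 9.98, 8.54 and 10.2 FPKM in the control, 7.22, 9.43 and 8.26 in the model, 5.72, 7.96 and 9.28 in the silibinin and 17.9, 12.1 and 9.09 in the phloridzin livers. Psmb5, which it replaces, read 97.8, 83.3 and 72.4 FPKM in the control, 79.4, 86.1 and 103 in the model, 55.5, 58.3 and 63.1 in the silibinin and 113, 62.0 and 63.4 in the phloridzin livers. Psmb8 was highest in phloridzin 1 and 2, and Psmb5 was lowest in the silibinin livers and in phloridzin 2 and 3. Psmb8 as a percent of Psmb5 was 10.2, 10.2 and 14.1 in the control, 9.10, 10.9 and 8.01 in the model, 10.3, 13.7 and 14.7 in the silibinin and 15.9, 19.5 and 14.3 in the phloridzin livers. All 3 phloridzin livers were above all control and model livers, and the silibinin livers overlapped both.

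The promoters of this pair are shown beside their ratio, on the same build, at chr14:54617946-54618245 (minus strand) for Psmb5 and chr17:34197945-34198244 (plus strand) for Psmb8. In both genes the RefSeq start used lies inside the span of the summed transcripts. For Psmb8 the whole window lies inside that span (chr17:34197721-34201454). In Psmb5 the capitals mark TGACGTCGC, a match to TGACNNNGC 47 bases before the start, and in Psmb8 they mark TTCCCAGAA, a match to TTCNNNGAA 97 bases before the start.
Psmb5: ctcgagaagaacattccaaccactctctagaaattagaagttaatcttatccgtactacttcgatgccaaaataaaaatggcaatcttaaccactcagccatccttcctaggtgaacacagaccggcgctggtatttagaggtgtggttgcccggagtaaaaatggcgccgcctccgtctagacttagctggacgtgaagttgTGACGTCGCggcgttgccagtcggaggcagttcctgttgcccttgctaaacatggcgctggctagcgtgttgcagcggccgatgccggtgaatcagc
Psmb8: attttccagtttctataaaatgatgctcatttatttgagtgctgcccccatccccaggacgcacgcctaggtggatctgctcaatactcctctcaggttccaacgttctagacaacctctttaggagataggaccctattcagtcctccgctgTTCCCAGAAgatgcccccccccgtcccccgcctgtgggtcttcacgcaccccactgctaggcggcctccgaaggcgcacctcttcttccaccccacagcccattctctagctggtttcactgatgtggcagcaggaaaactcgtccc

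With 3 livers against 3, the smallest two-sided exact permutation p is 0.1, so no ratio could pass 0.05 in that test, and no other test was run on the ratios. The log2 ratio of Psmb8 to Psmb5 was higher by 0.82 in phloridzin than in model and by 0.53 than in control (exact permutation p = 0.1 each, adjusted p = 0.514 over 18 tests), in 3 of 3 phloridzin livers. Without phloridzin 1 these differences were 0.845 and 0.55, and with only the highest transcript of each gene the one against control was 0.82. Against the model, silibinin was higher by 0.46 (exact permutation p = 0.2), which turned to -0.015 with the highest transcript, and model differed from control by -0.29 (exact p = 0.3).

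Psmb10 as a percent of Psmb7, the trypsin-like subunit of the constitutive core, was 13.4, 15.9 and 14.6 in the control, 14.4, 15.04 and 10.6 in the model, 15.3, 15.5 and 16.3 in the silibinin and 14.8, 18.3 and 19.7 in the phloridzin livers. Psmb7 itself read 71.1, 74.1 and 63.6 FPKM in the control, 57.3, 67.3 and 76.9 in the model, 57.1, 58.3 and 66.1 in the silibinin and 96.2, 68.9 and 60.8 in the phloridzin livers. All silibinin livers were above all model livers in this ratio, while phloridzin 1 lay within the range of the model. The log2 ratio was higher than in the model by 0.25 under silibinin (exact permutation p = 0.1, adjusted p = 0.514, in 3 of 3 livers) and by 0.40 under phloridzin (exact permutation p = 0.2, adjusted p = 0.514), or 0.52 without phloridzin 1.

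Psmb9, the third immunosubunit, was low at 1.13, 1.87 and 0.812 FPKM in the control, 1.78, 1.35 and 0.983 in the model, 0.855, 1.33 and 1.197 in the silibinin and 2.47, 0.76 and 1.283 in the phloridzin livers. Psmb6, the caspase-like subunit it replaces, read 91.2, 93.0 and 79.0 FPKM in the control, 98.1, 99.1 and 113 in the model, 81.1, 70.7 and 81.0 in the silibinin and 113, 74.6 and 84.5 in the phloridzin livers. Psmb9 as a percent of Psmb6 ran from 0.87 to 2.18, and all groups overlapped. The smallest exact permutation p of its 6 comparisons was 0.6.

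**Figure D4:**
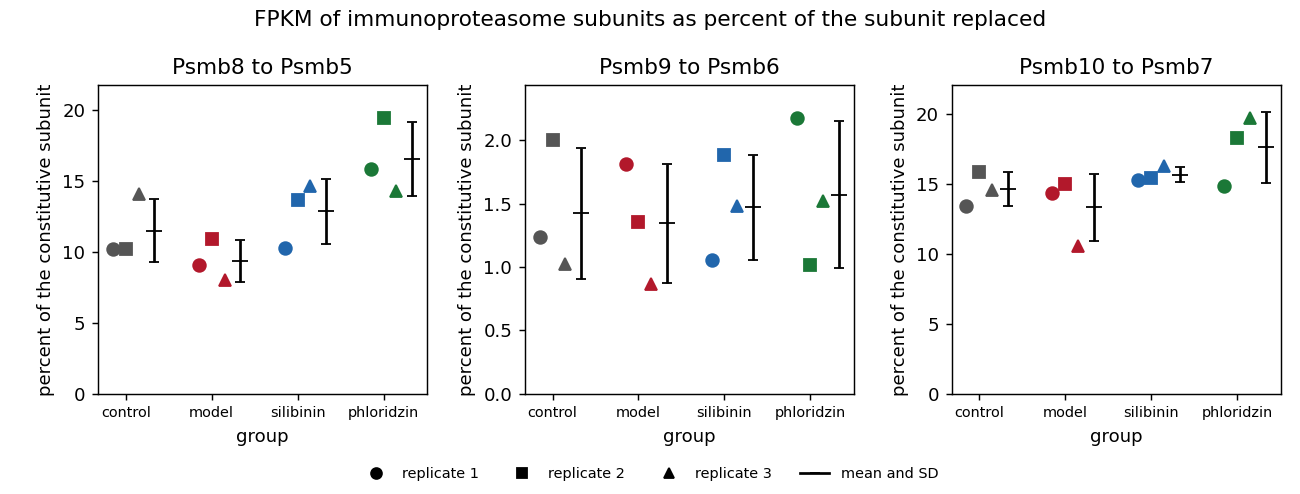
FPKM of Psmb8, Psmb9 and Psmb10 as a percent (vertical axis, from 0) of Psmb5, Psmb6 and Psmb7 by group (horizontal axis), with each liver as a point and the mean and SD beside it. The 3 phloridzin livers lie above the control and model livers for Psmb8 to Psmb5, and all groups overlap for Psmb9 to Psmb6.

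In the alpha ring, Psma6 had the highest mean, with 85.9, 92.9 and 65.1 FPKM in the control, 59.2, 69.8 and 80.2 in the model, 62.4, 60.9 and 73.9 in the silibinin and 85.9, 75.0 and 70.3 in the phloridzin livers. Its groups overlapped. Psma1 read 66.0, 70.9 and 52.5 FPKM in the control, 67.3, 77.9 and 81.0 in the model, 48.7, 52.6 and 54.7 in the silibinin and 96.3, 55.6 and 50.5 in the phloridzin livers, and phloridzin 1 was the highest of the 12. Psma3 read 30.1, 28.9 and 21.4 FPKM in the control, 34.0, 31.7 and 32.5 in the model, 25.9, 27.9 and 23.9 in the silibinin and 30.4, 34.6 and 21.9 in the phloridzin livers, with phloridzin 2 highest. On the deposited scale limma called 0 of the 7 alpha genes in model against control, silibinin against model and phloridzin against model. In the same order 0, 3 and 0 had an unadjusted p under 0.05, and voom called 0, 1 and 0. Of all genes, limma called 34.9%, 14.1% and 12.9%, with 45.8%, 29.2% and 27.8% at an unadjusted p under 0.05.

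In the beta ring Psmb1, the highest member, stood at 131, 135 and 93.7 FPKM in the control, 106, 129 and 133 in the model, 100.2, 105 and 111 in the silibinin and 154, 117 and 107 in the phloridzin livers, and its groups overlapped. Psmb4, another structural beta subunit, read 110.1, 101 and 81.9 FPKM in the control, 94.96, 123 and 141 in the model, 76.3, 76.1 and 87.9 in the silibinin and 132, 92.0 and 97.3 in the phloridzin livers. Model 3 was the highest liver for Psmb4, and the silibinin livers lay below the model livers.

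Among the base ATPases, which unfold the substrate, Psmc6 had the highest mean, with 45.9, 46.4 and 38.3 FPKM in the control, 43.6, 54.6 and 50.2 in the model, 32.5, 35.0 and 39.9 in the silibinin and 54.8, 41.7 and 36.3 in the phloridzin livers. The silibinin livers were below the model livers, and phloridzin 1 was the highest liver. Psmc1 read 41.3, 41.0 and 38.8 FPKM in the control, 4.24, 39.4 and 40.4 in the model, 28.9, 31.9 and 20.3 in the silibinin and 27.8, 35.5 and 15.5 in the phloridzin livers. Model 1 was far below the other model livers, which lay among the controls. Psmc5 read 13.5, 8.04 and 8.95 FPKM in the control, 5.49, 4.48 and 1.26 in the model, 9.89, 4.63 and 6.87 in the silibinin and 12.3, 0.446 and 11.2 in the phloridzin livers, with its lowest value in phloridzin 2. Its 3 model livers lay below its 3 control livers, at -1.34 ± 0.743 by limma (adjusted p = 0.184), which did not pass in the fit of all 12 livers.

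Swings of this kind between livers of a group were looked for after the values had been seen. A range of more than 5-fold within a group occurred in 6 of 47 members (12.77%) and in 13.29% of all genes, a like share. The genes were Psmc1, Psmc2, Psmc4, Psmc5, Psmd1 and Psme2b. Psmc4 read 6.58 FPKM in model 1, beside 42.5 and 47.4 in model 2 and 3, and Psmc2 read 4.89 in model 3, beside 40.0 and 51.2 in model 1 and 2. Psmd1, a scaffold of the base, read 19.7, 4.49 and 19.9 FPKM in the control, 9.70, 8.46 and 9.89 in the model, 16.9, 32.9 and 32.9 in the silibinin and 14.7, 24.4 and 4.20 in the phloridzin livers. Control 2 and phloridzin 3 were the low livers.

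Of the other lid genes, Psmd6 had the highest mean, with 46.9, 44.6 and 37.3 FPKM in the control, 44.5, 51.3 and 53.6 in the model, 31.4, 35.8 and 39.3 in the silibinin and 45.8, 40.2 and 35.1 in the phloridzin livers. All silibinin livers were below all model livers, and the change was -0.48 by limma (adjusted p = 0.0528, lower in 3 of 3 livers), which did not pass. All 8 lid genes had a positive log2 fold change in model against control, with a median of 0.346 that is 0.008 above that of all genes, though under median ratios only 3 were positive and the median was -0.086. In silibinin against model all 8 had a negative change on both scales, with a median of -0.471 on the deposited scale, -0.318 relative to all genes, and -0.261 under median ratios. This sign was not particular to the lid. On the deposited scale all 7 alpha, all 7 constitutive beta and all 7 chaperone genes were negative too, as were 8655 of 13158 genes.

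Psme1 and Psme2 encode the interferon-inducible activator that caps the core beside the immunoproteasome. Psme1 read 32.6, 20.1 and 31.0 FPKM in the control, 31.7, 32.0 and 7.97 in the model, 32.5, 19.8 and 21.7 in the silibinin and 48.8, 25.2 and 24.9 in the phloridzin livers. Psme2 read 22.4, 27.9 and 22.9 FPKM in the control, 31.7, 26.9 and 24.8 in the model, 23.8, 24.1 and 31.1 in the silibinin and 43.6, 28.5 and 22.0 in the phloridzin livers. Phloridzin 1 was the highest liver for both, and neither was called in any comparison. Psme2b is a near-identical copy of Psme2, so its level, 0.283 to 10.7 FPKM, is uncertain. Psmf1, an inhibitor of the core, read 7.20, 4.75 and 6.46 FPKM in the control, 4.55, 7.02 and 7.97 in the model, 9.03, 5.75 and 4.23 in the silibinin and 8.56, 4.35 and 6.91 in the phloridzin livers, with all groups overlapping.

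The assembly chaperones were low. Psmd9, the highest by mean, read 14.1, 13.9 and 8.54 FPKM in the control, 10.8, 9.53 and 10.4 in the model, 9.56, 9.56 and 10.1 in the silibinin and 9.98, 10.4 and 11.4 in the phloridzin livers. Psmg2, which pairs with Psmg1 to build the alpha ring, read 10.3, 10.5 and 7.46 FPKM in the control, 12.4, 9.97 and 12.3 in the model, 10.8, 10.8 and 8.05 in the silibinin and 12.9, 9.32 and 9.33 in the phloridzin livers. Control 1 and 2 were the highest livers for Psmd9, and the groups overlapped for Psmg2.

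Genes that work with the proteasome outside the naming rule were read from lists, 91 of 92 listed genes being found. Of 11 tested proteasome-associated genes, 4 rose on the deposited scale in model against control (Akirin2, Txnl1, Zfand2a and Zfand5), 5 fell in silibinin against model (Adrm1, Pomp, Txnl1, Zfand2a and Zfand5) and 3 fell in phloridzin against model (Adrm1, Txnl1 and Zfand2a). Of all genes, 31.1% were called higher in the first comparison, 11.4% lower in the second and 10.4% lower in the third. Under median ratios the counts were 1 (Zfand2a), 3 (Adrm1, Txnl1 and Zfand2a) and 1 (Zfand2a). Of all genes, 13.3% were then called higher in the first comparison, 6.48% lower in the second and 825 of 13158 lower in the third. On the deposited scale the list's medians relative to all genes were 0.165, -0.171 and -0.341. Zfand2a, an arsenite-inducible partner of the regulatory particle, read 5.15, 4.51 and 3.78 FPKM in the control, 15.5, 18.2 and 16.5 in the model, 4.14, 4.20 and 3.46 in the silibinin and 3.15, 4.13 and 4.17 in the phloridzin livers. The 3 model livers were far above all 9 others. Limma gave 1.70 ± 0.142 in model against control (adjusted p = 4.22e-05), -1.85 in silibinin against model (adjusted p = 4e-05) and -1.89 in phloridzin against model (adjusted p = 3.38e-05), each in 3 of 3 livers. Under median ratios all 3 stayed called, at 1.303, -1.64 and -1.71.

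Pomp, the chaperone that matures the core, read 2.69, 4.81 and 2.03 FPKM in the control, 14.8, 5.89 and 3.08 in the model, 2.22, 1.55 and 1.67 in the silibinin and 2.19, 2.00 and 2.67 in the phloridzin livers. Model 1 was the highest liver by far. It fell by 1.44 under silibinin against model (limma adjusted p = 0.0398, lower in 3 of 3 livers), and the call was lost without control 1 (0.0553), model 1 (0.0796), model 2 (0.0841), silibinin 1 (0.0765), silibinin 2 (0.0996), silibinin 3 (0.106), phloridzin 2 (0.0538) or phloridzin 3 (0.052), adjusted p in brackets, and under median ratios (-1.26, adjusted p = 0.0681). Without model 1 the Pomp value was -0.92. Adrm1, the ubiquitin receptor of the base that holds a deubiquitinase, read 27.1, 29.1 and 27.5 FPKM in the control, 29.4, 39.5 and 44.5 in the model, 19.3, 18.2 and 23.2 in the silibinin and 25.3, 22.1 and 24.2 in the phloridzin livers. All drug-treated livers were below all model livers. Limma gave -0.86 for silibinin (adjusted p = 0.0057, 3 of 3 livers) and -0.62 for phloridzin against model (adjusted p = 0.0259, 3 of 3 livers). The latter was lost without model 2 (0.0841), model 3 (0.0812), phloridzin 2 (0.0938) or phloridzin 3 (0.0643) and under median ratios (-0.45, adjusted p = 0.124).

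Of 14 genes for ubiquitin and substrate delivery, 6 rose in model against control (Nploc4, Rad23b, Ubb, Ubqln4, Ufd1 and Vcp), 4 fell under silibinin (Nploc4, Ubqln4, Ufd1 and Vcp) and 4 under phloridzin (Nploc4, Rad23b, Ubqln4 and Vcp), beside the same 31.1%, 11.4% and 10.4% of all genes, with medians of 0.199, -0.224 and -0.252 relative to all genes. Vcp, the ATPase that extracts ubiquitinated proteins, rose by 0.62 ± 0.154 in the model (limma adjusted p = 0.0109, 3 of 3 livers), which became 0.18 (0.329) under median ratios. On that scale limma called 0 of the 14 in model against control, with 0 at an unadjusted p under 0.05, 3 lower under silibinin (Nploc4, Ufd1 and Vcp) and 1 under phloridzin (Vcp). The shares of all genes there were 13.3% called higher, 6.48% lower and 825 of 13158 lower, in the same order. Of 11 genes around the transcription factors NFE2L1, which induces proteasome genes when the protease is blocked, and NFE2L2, 2 rose in the model (Ddi2 and Hmox1), a share below that of all genes. In silibinin against model 1 fell (Hmox1), beside 11.4% of all genes. In phloridzin against model limma and voom called 0, with 1 at an unadjusted p under 0.05 by limma (12.9% and 27.8% of all genes by limma). Under median ratios Ddi2 was at 0.15 (limma adjusted p = 0.589) and no longer called. Hmox1 stayed called there, at 1.42 against control (0.0088) and -1.14 under silibinin (0.0394). Nfe2l1 itself read 15.3, 20.96 and 22.0 FPKM in the control, 41.8, 16.4 and 21.8 in the model, 19.2, 20.9 and 18.8 in the silibinin and 21.2, 18.97 and 15.6 in the phloridzin livers, and was called in no comparison. Model 1 was its highest liver. Hmox1, the heme oxygenase, read 16.5, 10.7 and 10.2 FPKM in the control, 32.3, 60.6 and 50.6 in the model, 14.4, 14.9 and 24.8 in the silibinin and 28.5, 25.8 and 16.4 in the phloridzin livers, the model livers being highest. Limma gave 1.84 against control (adjusted p = 0.00144, 3 of 3 livers) and a change of -1.35 under silibinin (adjusted p = 0.0147, 3 of 3 livers), the latter lost without model 2 (0.06), silibinin 1 (0.0583) or silibinin 2 (0.0519).

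Of 10 interferon and class I presentation genes, 2 rose in the model (Gbp2 and Irf8), and these were also the 2 at an unadjusted p under 0.05, beside 31.1% of all genes called higher. Limma and voom called 0 in silibinin against model and 0 in phloridzin against model, with 0 in each at an unadjusted p under 0.05 by limma. Of all genes, limma called 14.1% and 12.9% in these comparisons, with 29.2% and 27.8% at an unadjusted p under 0.05. Gbp2, an interferon-induced GTPase, read 1.33, 1.276 and 0.961 FPKM in the control, 5.61, 11.3 and 4.50 in the model, 3.71, 2.71 and 4.98 in the silibinin and 15.7, 4.71 and 5.18 in the phloridzin livers. Irf8, a transcription factor of myeloid cells, read 3.05, 2.95 and 2.31 FPKM in the control, 8.77, 9.49 and 8.63 in the model, 6.79, 8.57 and 5.84 in the silibinin and 9.78, 7.33 and 5.86 in the phloridzin livers. For both, every control liver lay below every other liver. In model against control limma gave 1.81 for Gbp2 (adjusted p = 0.00698) and 1.41 for Irf8 (adjusted p = 0.000408), in 3 of 3 livers each. With only the highest transcript of the gene, the Irf8 value turned to -0.038 and was not called. Irf1, a transcription factor that induces the immunosubunits, read 14.7, 11.2 and 13.4 FPKM in the control, 14.8, 13.7 and 15.98 in the model, 17.0, 15.04 and 17.2 in the silibinin and 16.9, 14.95 and 14.9 in the phloridzin livers. It was called in no comparison.

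The genes most like Psmb8 across the 12 livers, among 6017 with a mean of at least 5 FPKM, were Alg5, Babam1, Ctsz, Nudc and Acp1, with Pearson r of 0.868, 0.863, 0.849, 0.846 and 0.827 and Spearman rho of 0.671, 0.755, 0.699, 0.699 and 0.692. Without phloridzin 1 the r was 0.723, 0.678, 0.729, 0.746 and 0.565 over 11 livers, so part of the likeness rests on that liver.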

How the data were processed

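Liver RNA of 4 groups of 3 livers was prepared with Trizol and the NEBNext Ultra RNA kit and sequenced. The authors demultiplexed with bcl2fastq, checked reads with FastQC 0.11.5, aligned them to mm10 with HISAT2 2.1.0, assembled transcripts with StringTie 1.3.3b and deposited FPKM per transcript. The submitters' processing notes also name DESeq 1.28.0, a count test that was not run here. FPKM were summed per gene symbol. Fragment depth was recovered from FPKM times length for transcripts of at least 1500 bases and multiples up to 30, with lengths from GENCODE M21 for 81968 transcripts.

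Tests used limma 3.58.1 in R 4.3.3 with a variance trend on log2(FPKM + 1), group as the only term and Benjamini-Hochberg adjustment, as the design had assumed for FPKM. Ratios used a pseudocount of 0.1 and two-sided exact permutation tests written in Python 3.11.15, adjusted over 18 tests with scipy 1.17.1. The code was tested on simulated data. Alternatives were other filters and pseudocounts, median ratio scaling, the highest transcript, Ensembl transcripts, 2 groups alone, a replicate block, voom, robust variances, each liver left out and, chosen after the data were seen, protein-coding transcripts. Members and lists were chosen with earlier results of these data known.

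Genes given in every liver were the immunosubunits and their partners, activators and inhibitor, tissue-restricted subunits and, per other role, the gene with the highest mean and the 2 with the largest model against control change. Called genes outside that rule were added after their values were seen. Pathway genes were given if called with a log2 fold change past 1, with Nfe2l1, Pomp, Adrm1 and Irf1 always, and Vcp was chosen after its values were seen. Some listed genes are not reported here.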

Additional observations from a re-analysis of the deposited data

Results flagged for a closer look

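Noncoding transcripts without a symbol overlap members on the same strand, 27 over 10 members, and did not enter the sums. They were looked at after the data were seen. Of them 3 had a mean of at least 1 FPKM over the 12 livers, with every model liver above every control liver, an order found in 43.4% of 4047 such noncoding transcripts over the whole table and in 45.1% of all genes tested. Both transcripts in Psme4 reached that mean only through the model livers, with means of 0.815 and 0.824 over the other 9, so their height in the model is no result. Inside Psmd11 (chr11:80466459-80467735) the control livers read 1.74, 1.56 and 1.07 FPKM and the model livers 3.69, 1.79 and 2.64, the lowest model liver being at 1.791. Inside Psme4 (chr11:30838630-30839918) the control livers read 0.472, 0.88 and 0.665 FPKM and the model livers 3.09, 1.98 and 2.12. A second transcript inside Psme4 (chr11:30808482-30811161) read 0.933, 0.757 and 0.49 FPKM in the control and 2.31, 1.85 and 1.64 in the model livers. Reads of the host gene and of these transcripts cannot be told apart here, and no test was run on them.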

How the results depend on the processing

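Called members, 7, 7 and 4 in model against control, silibinin against model and phloridzin against model, became 6 (all lower), 3 and 3 under median ratios, and 2, 4 and 1 with the highest transcript per gene, where 21.5%, 8.77% and 7.48% of all genes were called. With only the 2 groups compared, silibinin against model gave 12 (11.9% of all genes) and phloridzin against model 1 (4.59%). Of the 4 and of the 12, 1 was higher, Psmd1. Median ratios called 2 in silibinin against control and 1 in phloridzin against control, where the deposited scale called 0 by limma. The replicate block gave 5 in model against control, where Psmd7 and Psmd10 were lost, 7 in silibinin against model and 2 in phloridzin against model, where Psmb10 and Psme4 were lost (33.1%, 12.6% and 11.1% of all genes). Same-number pairs correlated at -0.091 to 0.101 over all genes (18 pairs), within the -0.165 to 0.146 of pairs with other numbers (36 pairs). The numbers thus showed no pairing of the livers, though a weak shared batch could go unseen in such values. With a liver left out the counts ran from 3 to 7, 3 to 18, 1 to 7, and 0 to 1 in phloridzin against control. In each case the cause was not tested.

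With the highest transcript, the Psmb8 to Psmb5 log2 ratio turned to -0.015 in silibinin against model and -0.41 in silibinin against control, and Psmb9 to Psmb6 to -0.88 and -0.95. A pseudocount of 1 turned Psmb9 to Psmb6 to -0.021 in phloridzin against silibinin. Leaving out a liver, Psmb9 to Psmb6 ran from -0.33 to 0.17 in model against control, -0.10 to 0.40 in silibinin against model, -0.043 to 0.47 in phloridzin against model, -0.19 to 0.30 in phloridzin against silibinin, -0.12 to 0.33 in silibinin against control and -0.11 to 0.38 in phloridzin against control. Psmb10 to Psmb7 ran from -0.24 to 0.011 in model against control. Irf8 in model against control turned to -0.038 with the highest transcript, and Psmb7 and Psmb8 in silibinin against model to 0.071 and 0.072 under median ratios. Leaving out a liver, Psmb7 ran from -0.043 to 0.28 and Psmb9 from -0.23 to 0.26 in phloridzin against model, and Psmb8 from -0.25 to 0.052 in silibinin against model. The cause was not tested.

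Of 39 named gene and comparison pairs, 24 kept direction and call with the highest transcript, 22 under median ratios, 38 with a pseudocount of 0.1 and 35 with the block. The exact permutation test used on the ratios cannot pass 0.05 with 3 livers a group, and model 1 is the shallowest library.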
